A study of Mus musculus with 12 samples.

Results

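Visceral fat RNA pools that carried epididymis transcripts were set against pools that did not. The arrays were chosen by the measured log2 intensity of Crisp1, a cysteine-rich secretory protein that the epididymis makes and that coats sperm. Of 12 arrays, 8 had Crisp1 above 9 (called Crisp1-high) and 4 had it at or below 9 (Crisp1-low). The lowest Crisp1-high array lay at 12.43 (ASP+TFA replicate 1) and the highest Crisp1-low array at 6.50 (ASP+MSG+TFA replicate 3), so no array was near the limit. Because Crisp1 itself chose the arrays, every difference between these sets is given as a description, with its standard error (SE) and without a test.

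All mice were 20-week-old male C57Bl/6J offspring, an inbred strain, and all of them ate a trans fat chow (TFA) with 20% w/w shortening and 8.68% w/w trans fatty acids. The diets were MSG+TFA (monosodium glutamate in the drinking water, 0.75 g/L), ASP+TFA (aspartame, 0.25 g/L), ASP+MSG+TFA (both additives at these doses) and TFA alone as the control. Mothers went on the diet at 6 weeks of age, 3 weeks before mating, and pups were weaned at 4 weeks. Each diet had 15 mice and 3 arrays, and RNA pooled from several mice was put on each array, so no value belongs to a single animal. The Crisp1-high arrays were MSG+TFA replicates 1 and 3, ASP+TFA replicates 1 and 2, ASP+MSG+TFA replicates 1 and 2, and TFA replicates 1 and 3. The Crisp1-low arrays were MSG+TFA replicate 2, ASP+TFA replicate 3, ASP+MSG+TFA replicate 3 and TFA replicate 2. Every diet thus held 2 Crisp1-high arrays and 1 Crisp1-low array, and the grouping is balanced over the diets.

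The epididymis is the coiled duct in which sperm mature after leaving the testis, and in the mouse the epididymal fat pad is attached to it. Its epithelium comes from the Wolffian duct, depends on androgens, and is divided into successive segments (initial segment, caput, corpus and cauda) that each secrete their own set of proteins. The fat pad itself is built of adipocytes, vessels, fibroblasts, macrophages and a mesothelial lining. By the study's methods, the tissue was the epididymal pads plus fat lying around reproductive and digestive organs.

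Levels are log2 normalized intensities, 1 per gene and array, taken as the median over the probe sets of that gene. With 1 mean per diet in the fit, the difference of a gene is the mean of 8 within-diet differences, each a Crisp1-high array minus the Crisp1-low array of its diet. A gene was counted when all 8 had the same sign and the fitted difference was at least 1.4-fold. A log2 value of 6.61, which 90% of receptor genes for smell and pheromones did not reach on average, was taken as the level of dim signal.

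The 5 other markers given for the epididymis behaved like Crisp1 on most but not all arrays. Crisp1 ranged between 12.43 and 13.85 on the Crisp1-high arrays (median 13.38), against 5.75 on MSG+TFA replicate 2, 5.92 on ASP+TFA replicate 3, 6.50 on ASP+MSG+TFA replicate 3 and 5.60 on TFA replicate 2. Adam7, a membrane protein of the ADAM family made in the epididymis, ranged between 10.94 and 13.60 (median 13.08), against 5.79, 6.42, 5.49 and 6.46 on the Crisp1-low arrays in the same order. Neither gene overlapped between the sets, and the fitted differences were 7.29 (SE 0.26) for Crisp1 and 6.81 (SE 0.43) for Adam7. Crisp4, a sister gene of Crisp1, spanned 7.97 to 12.19 (median 11.22), against 5.85, 5.05, 4.96 and 6.10, a difference of 5.40 (SE 0.70). Its lowest Crisp1-high value was on MSG+TFA replicate 3. With the brightest probe set of each gene in place of the median, the Crisp4 difference was 3.21.

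The 3 remaining markers each dropped out on particular Crisp1-high arrays. Spink8, a Kazal-type protease inhibitor, stood at 8.30 on ASP+TFA replicate 1 and at 11.43 to 12.90 on the other Crisp1-high arrays, against 4.95 to 5.42 on the Crisp1-low arrays (difference 6.63, SE 0.69). Lcn5, a retinoid-binding lipocalin, was at 7.67 on that same array and at 11.99 to 13.54 on the others, against 5.31 to 6.81 (difference 6.54, SE 0.98). Both kept above every Crisp1-low array. Lcn8, another epididymal lipocalin, was between 12.67 and 13.35 on 6 Crisp1-high arrays but at 5.28 on TFA replicate 3 and 5.14 on MSG+TFA replicate 3, against 5.69, 6.34, 4.68 and 5.92 on the Crisp1-low arrays. The sets overlapped for Lcn8 alone of the 6 markers, and its difference of 5.37 carried an SE of 1.64.

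**Figure D1:**
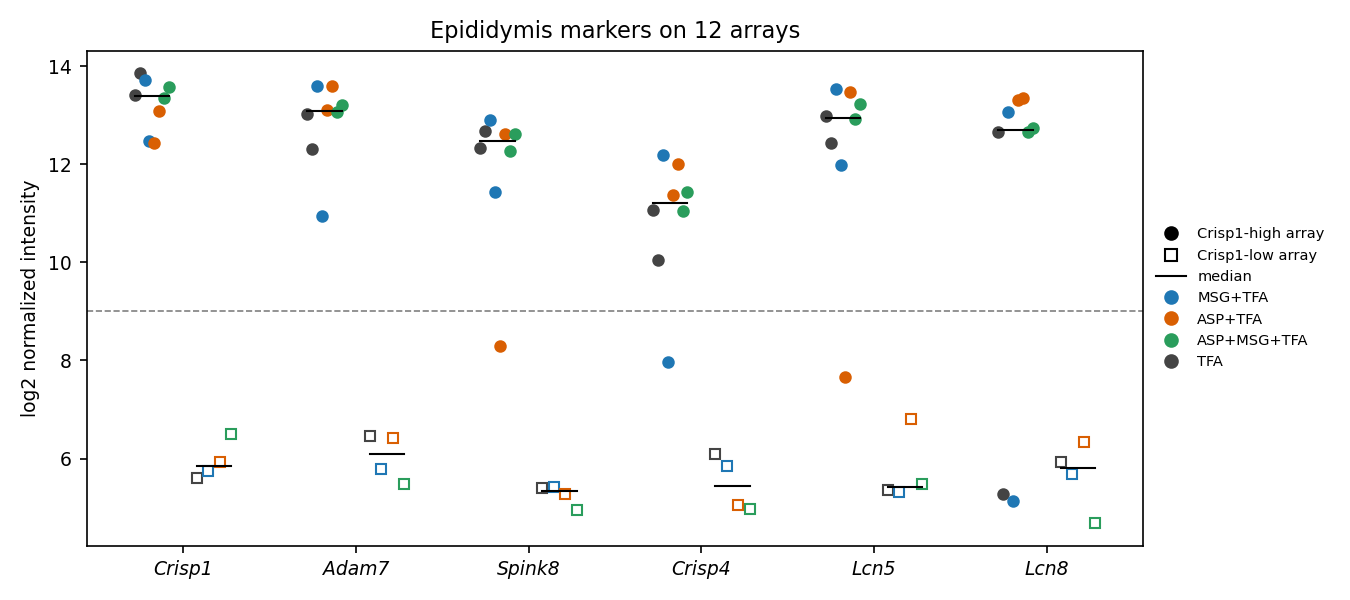
Log2 normalized intensity of the 6 epididymis markers on 12 arrays (filled circles: 8 Crisp1-high arrays, drawn on the left of each gene; open squares: 4 Crisp1-low arrays; lines: medians; colours: diets; dashed line: the Crisp1 limit of 9). Crisp1 and Adam7 separate completely, Spink8 and Lcn5 have 1 low circle (ASP+TFA replicate 1, at 8.30 and 7.67), and Lcn8 has 2 circles at 5.28 and 5.14 among the squares.

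Over all 20358 genes, 484 were counted as higher on the Crisp1-high arrays (2.38% of the genes) and 158 as lower (0.776%). Both shares are the background for the counts of each gene list below. The high side held the large differences: 32 of the genes counted as higher differed by more than 4 log2 units, while the largest difference among the genes counted as lower, that of Mmp12, was at -1.71. With a limit of 2-fold the counts were 238 (1.17%) and 8 (0.0393%). Complete separation followed the same order. The lowest Crisp1-high array lay above the highest Crisp1-low array for 250 genes (1.23%), and the highest Crisp1-high array below the lowest Crisp1-low array for 78 genes (0.383%). The median difference over all genes was -0.06. The count of lower genes was the less stable: with 1 array left out it lay between 128 and 455, against 456 to 650 for the higher genes. Fewer differences then had to share a sign, 7 without a Crisp1-high array and 6 without a Crisp1-low array. The 455 lower genes, without ASP+MSG+TFA replicate 3, rested on 6 and held 152 of the 158. Of the genes counted as higher, 229 had a mean at or below the dim level on the Crisp1-low arrays and 255 a mean above it.

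**Figure D2:**
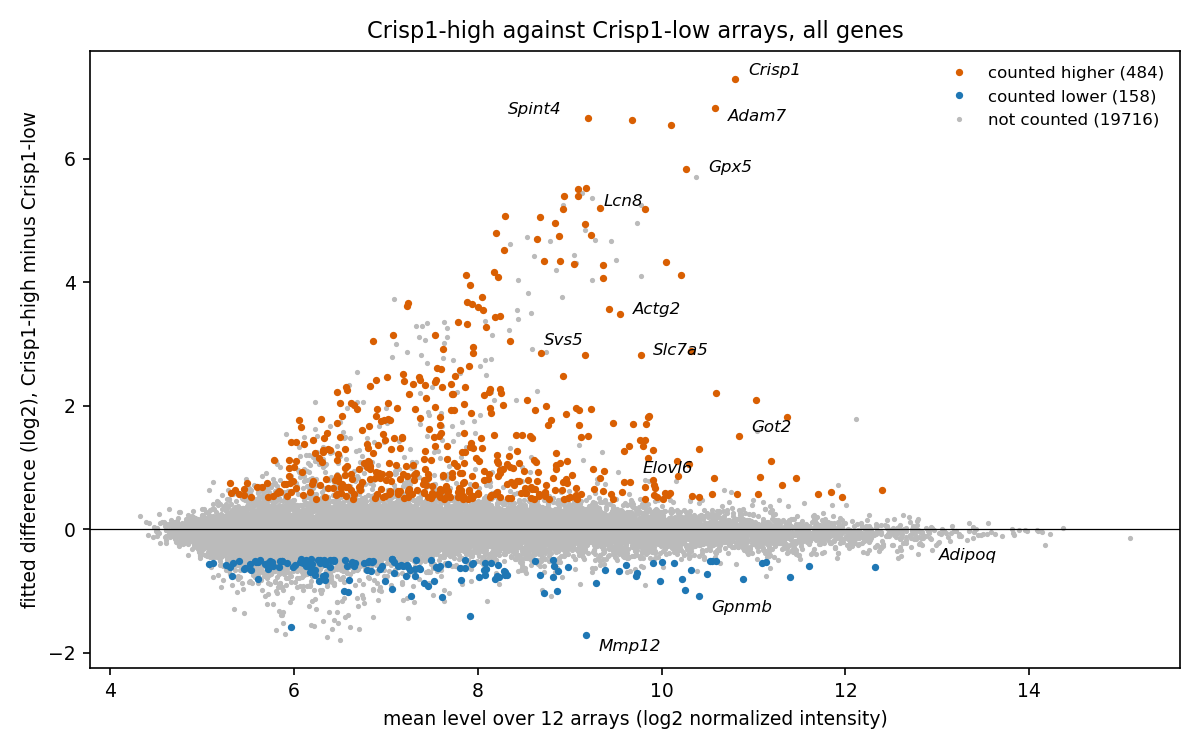
Fitted log2 difference, Crisp1-high minus Crisp1-low, against the mean log2 intensity over 12 arrays for 20358 genes (orange: 484 counted higher; blue: 158 counted lower; grey: not counted). Crisp1 tops the plot at 7.29, Lcn8 and Gpx5 are grey because they were not higher in all 8 within-diet differences, and Mmp12 at -1.71 is the counted-lower gene farthest from 0.

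The arrays also differed in their dim signal. On MSG+TFA replicates 1 and 2 and TFA replicates 1 and 2 the median of the 1169 receptor genes was 6.40 to 6.76, against 5.44 to 5.66 on the other arrays. These raised arrays held 2 Crisp1-high and 2 Crisp1-low arrays, and the 6 arrays of the aspartame diets held none, so each difference is also available within a single state. Of the genes counted as higher, 413 were at least 1.4-fold higher in the aspartame diets and in the raised arrays taken separately, and 79 of the genes counted as lower were at least 1.4-fold lower in both. The 4 and 2 within-diet differences of these subsets are among the 8 that chose the genes. These counts are therefore a description and not a check.

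Secretory genes of the epididymis, with the 6 markers left out, made up the group with the largest median difference, 3.79. Of 46 measured, 19 were counted as higher (beside 2.38% of all genes) and none as lower. All 46 were above 0, beside 39.2% of all genes above and 60.8% below 0. The median was 4.69 within the aspartame diets and 4.10 within the raised arrays. On average over the arrays, 44 of the 46 exceeded the dim level on Crisp1-high arrays and 5 on Crisp1-low arrays. The median level of the list spanned 6.97 to 11.48 on Crisp1-high arrays, lowest on MSG+TFA replicate 3 and highest on ASP+TFA replicate 2, against 5.40 to 6.09 on Crisp1-low arrays.

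The 20 genes with the largest counted differences included several protease inhibitors, grouped here after their values were seen. Spint4 (Kunitz type) differed by 6.65 (SE 1.10), Spink11 and Spink12 (Kazal type, as Spink8) by 5.53 (SE 1.02) and 5.06 (SE 0.85), and Wfdc9, of the whey acidic protein family, by 4.69 (SE 0.96). Cstdc2, with a cystatin domain, differed by 5.18 (SE 1.50). Proteins of the sperm surface and the luminal fluid followed. Epp13 differed by 5.83 (SE 0.65), Pate6 by 5.51 (SE 1.42), the membrane mucin Muc15 by 5.39 (SE 0.68), the adhesion molecule Ceacam10 by 5.20 (SE 1.17) and C4bp, an inhibitor of complement, by 5.19 (SE 0.54). Rnase12, of the RNase A family, differed by 4.96 (SE 0.41), the lipocalin Lcn12 by 4.76 (SE 0.90) and the carboxylesterase Ces5a by 4.74 (SE 0.98).

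Beta-defensins, small antimicrobial peptides of which many are made in the epididymis and coat sperm, were higher in part. Of 43 measured, 15 were counted as higher and 1, Defb33, as lower, beside 2.38% and 0.776% of all genes. The median difference was 1.72. Defb12 ranged between 6.98 and 12.12 on the Crisp1-high arrays, against 4.75 to 5.09 on the Crisp1-low arrays (difference 5.07, SE 0.88). Defb42 ranged between 8.77 and 12.00, against 5.62 to 6.20 (4.95, SE 0.57). Other members did not separate: Defb4, known from other epithelia, spanned 5.28 to 6.57 on Crisp1-high arrays and 5.23 to 6.62 on Crisp1-low arrays. Defb33 was bright on raised arrays of both sets (7.64 and 7.08 on TFA replicate 1 and MSG+TFA replicate 1, against 8.19 and 7.41 on their Crisp1-low arrays) and at 5.26 to 6.07 elsewhere.

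Genes that mark any lining epithelium were higher as well. Of 25 epithelial identity genes 16 were counted as higher (beside 2.38% of all genes) and none as lower. The median difference was 1.72 (2.00 within the aspartame diets and 1.78 within the raised arrays). Cldn8, a tight junction protein, differed by 3.33 (SE 0.58), the membrane protease St14 by 2.36 (SE 0.44), the splicing factor Esrp1 by 2.05 (SE 0.41) and E-cadherin (Cdh1), which joins epithelial cells, by 2.02 (SE 0.46). Cdh1 ranged between 6.84 and 9.81 on Crisp1-high arrays (median 8.62), against 6.73, 5.90, 6.85 and 6.53. The sets overlapped for Cdh1 only through MSG+TFA replicate 3 (6.84), which lay just under ASP+MSG+TFA replicate 3.

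Transcription factors of the Wolffian duct, which gives rise to the epididymis, depended on how probe sets were combined. Of 10 measured, 6 were counted as higher, with a median of 1.22, but with the brightest probe set of each gene the median was -0.01. Pax2 ranged between 6.60 and 8.32 (median 7.67), against 6.24, 5.67, 5.76 and 5.67, and the sets did not overlap. Pax8 differed by 2.01 (SE 0.42), Emx2 by 2.32 (SE 0.36), and Gata3 by 1.36 (SE 0.32). Pax8 was at 2.68 and Emx2 at 2.08 with the brightest probe set, but Pax2 at 0.037 and Gata3 at -0.062, and with the mean of the probe sets Pax2 was at 0.90. Sall1 was at -0.49 and Lhx1 at -0.03. Among 16 posterior Hox genes, which pattern the lower body, only Hoxd8 was counted (difference 1.07, SE 0.23), and the median was -0.02.

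The duct's transport and hormone genes gave 5 of 15 counted as higher, with a median of 0.71 (0.21 with the brightest probe set). Srd5a2 and Srd5a1, which convert testosterone to dihydrotestosterone, differed by 2.48 (SE 0.64) and 1.02 (SE 0.22). Aqp9, a channel for water and small solutes, differed by 1.96 (SE 0.31), and Ggt1, which cleaves glutathione outside the cell, by 1.88 (SE 0.44). Aqp9 was at 0.46 and Ggt1 at 0.28 with the brightest probe set, while Srd5a1 was at 2.00. Cftr, the chloride channel, was higher in 6 of 8 within-diet differences (1.17, SE 0.42) and was not counted.

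Other cells of the duct were less visible. Among 9 basal cell genes, Krt5 (1.55, SE 0.32) and Cldn1 (2.19, SE 0.30) were counted as higher, while Trp63, the factor that defines basal cells, was higher in 6 of 8 differences (1.13, SE 0.39). With the brightest probe set the Krt5 difference was -0.25 and that of Trp63 0.16. None of 8 clear cell genes was counted, and Foxi1, their master factor, spanned 6.55 to 8.02, against 7.41, 6.38, 6.30 and 7.46. Of 12 genes of ciliated cells and efferent ducts none was counted, and only 5 had a mean above the dim level. Of 15 smooth muscle genes only Actg2 (3.49, SE 0.94) and calponin, Cnn1 (1.92, SE 0.67), were counted. Actg2 was at 1.82 with the brightest probe set. Both encode proteins of the contractile wall that surrounds ducts and gut.

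The genes whose deviations from their diet means were most like those of Crisp1 over the 12 arrays were Adam7 (Pearson's r = 0.98) and Rnase12 (r = 0.98). Pgap2, Wfdc15b, Spink8, Wfdc10, Tmc5, C4bp, Epp13 and Tvp23b followed. Pgap2, which remodels the lipid anchor of GPI-linked proteins, spanned 9.57 to 10.27 on Crisp1-high arrays, against 8.46 to 9.22. The 12 values share the Crisp1 split that defines the sets, so this order is a description. Fold size and likeness differed: Tvp23b, a Golgi membrane protein, had a difference of only 0.32 (SE 0.08), with 8.76 to 8.95 against 8.47 to 8.62.

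Among the 8 Crisp1-high arrays, epididymis genes did not vary together but in blocks. Blocks were sought after the values had been seen, as genes whose lowest array of a bright set exceeded the highest of all other arrays by 1 log2 unit. In the blocks a gene is called bright or lower by this gap, whatever its level. In the first, 25 genes were bright on all 8 arrays, among them Crisp1, Adam7, C4bp, Rnase12, Wfdc15b, Cuzd1 and the sperm-surface inhibitor Eppin. Eppin ranged between 9.04 and 11.48, against 5.29 to 7.01 on the Crisp1-low arrays.

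In the second block, 53 genes were bright on 6 Crisp1-high arrays and lower on TFA replicate 3 and MSG+TFA replicate 3, where 14 of them on each array still exceeded the dim level. The antioxidant enzyme Gpx5, secreted by the caput in mice, was at 13.76 to 14.05 on the 6 arrays, at 5.24 on TFA replicate 3 and 9.75 on MSG+TFA replicate 3, against 5.20 to 8.34 on the Crisp1-low arrays. Rnase10, needed in mice for sperm maturation and made in the proximal duct, was at 11.19 to 12.12, and at 5.29 and 5.17 on those arrays, against 5.26 to 5.86. Ros1, the receptor tyrosine kinase on which the mouse initial segment depends, was at 8.31 to 10.26, and at 6.54 and 5.55, against 4.56 to 5.06. These 3 genes, like Lcn8, Lcn9, Cst11 and Ly6g5b, are background markers of the proximal duct, and on TFA replicate 3 and MSG+TFA replicate 3 they were no brighter than on the Crisp1-low arrays, apart from Gpx5 on MSG+TFA replicate 3 and Ros1 on both. Of the 46 secretory genes 16 fell in this block, as did 6 of the beta-defensins.

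Genes of other lists shared the second block. Actg2 was at 11.10 to 12.52 on the 6 arrays and at 7.83 on TFA replicate 3 and 7.19 on MSG+TFA replicate 3, against 6.50 to 7.82. Slc7a5, the carrier of large neutral amino acids, was at 11.02 to 12.26, and at 8.71 and 7.92, against 7.42 to 8.19. Klrb1c, a receptor that marks natural killer cells, was at 8.02 to 10.88, and at 5.18 and 5.14, against 5.01 to 5.39. The lipid transporter Mfsd2a was at 8.71 to 10.78, and at 5.58 and 5.61, against 4.82 to 5.98. Klrb1c was the only gene of 17 T and NK cell genes in the block. Klrb1a, which is not on that list, was in the block too, at 8.04 to 10.01, and at 5.96 and 6.31, against 5.38 to 6.42.

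In the third block, 36 genes were bright on 7 Crisp1-high arrays and lower on ASP+TFA replicate 1, where 8 of them exceeded the dim level. Spint4 was at 11.34 to 13.01 on the 7 arrays and at 4.82 on that array, against 4.59 to 5.03 on the Crisp1-low arrays. Serpina1f, a serpin, was at 10.80 to 12.70 and at 4.70, against 5.16 to 5.86. Defb23 was at 11.63 to 12.82 and at 5.47, against 5.50 to 7.21. ASP+TFA replicate 1 thus had these genes at the level of arrays without Crisp1, while its Crisp1 was 12.43, its Adam7 13.10 and its Lcn8 13.31. Of the secretory genes 11, and of the beta-defensins 7, fell in this block. Crisp4 and Defb42 belonged to the first and the second block, and Spink8 and Spink12 to the first and the third, because they were intermediate on the arrays in question.

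**Figure D3:**
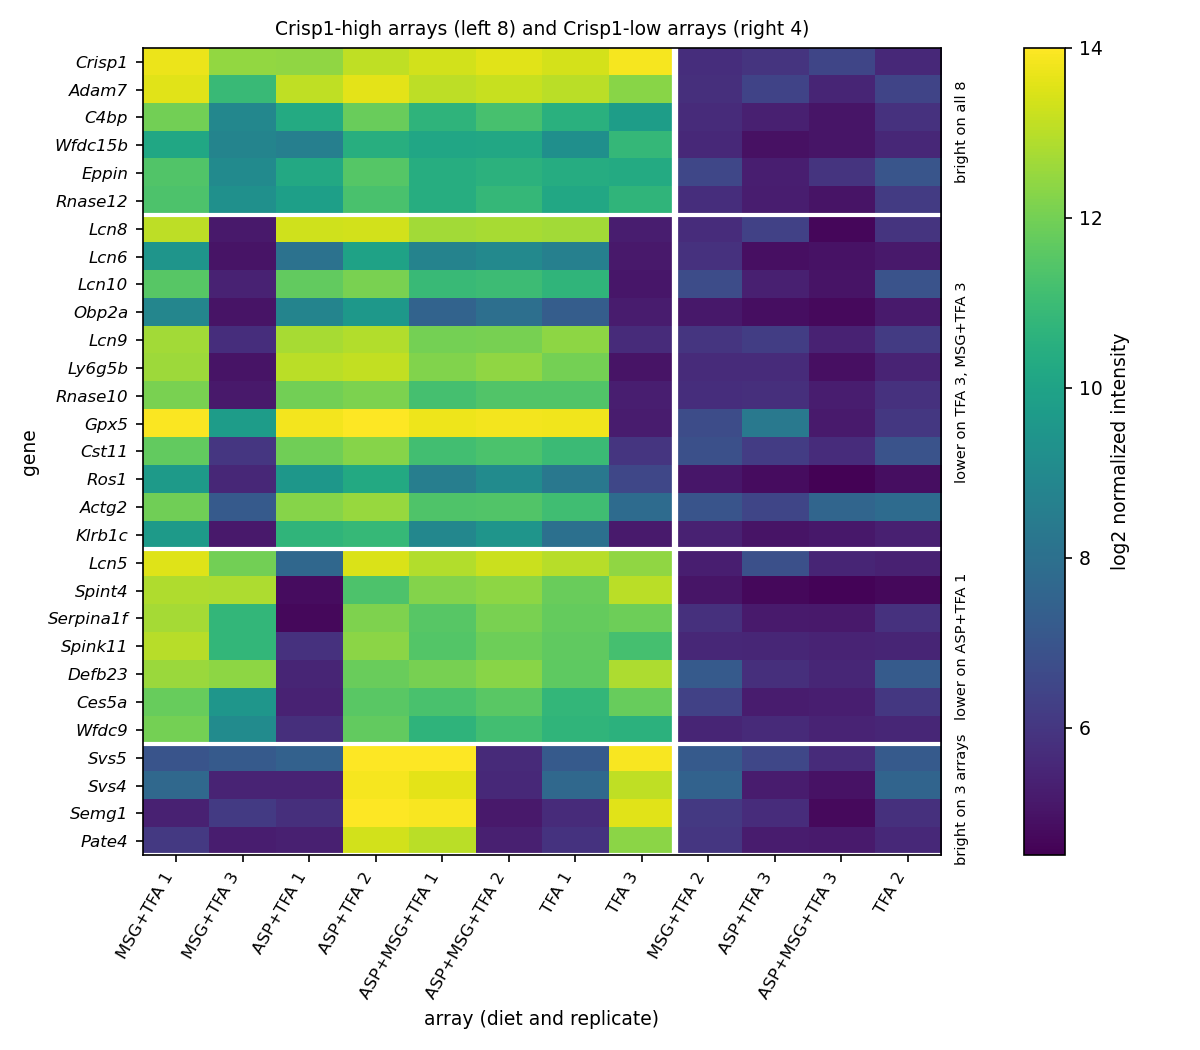
Log2 normalized intensity of 29 genes (down the page) on 8 Crisp1-high arrays (left) and 4 Crisp1-low arrays (right), in 4 blocks chosen after their values were seen. Crisp1 to Rnase12 are bright on all 8 left columns, Lcn8 to Klrb1c drop on TFA 3 and MSG+TFA 3, Lcn5 to Wfdc9 drop on ASP+TFA 1, and Svs5 to Pate4 are bright on TFA 3, ASP+TFA 2 and ASP+MSG+TFA 1.

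The second and the third block met within 1 gene cluster. In the RefSeq annotation of mouse assembly GRCm38.p6, Lcn8, Lcn5, Lcn6, Lcn10 and Obp2a are consecutive genes on chromosome 2, all of the lipocalin family, which carries small hydrophobic molecules. Lcn8, Lcn6, Lcn10 and Obp2a belonged to the second block, and Lcn5, which lies between Lcn8 and Lcn6, to the third. Each was compared with itself over the arrays. On TFA replicate 3, Lcn5 was at 12.44, on its bright side, while Lcn8 was at 5.28, Lcn6 at 5.14, Lcn10 at 5.09 and Obp2a at 5.22. On ASP+TFA replicate 1, Lcn5 was at 7.67, below its other Crisp1-high arrays, while Lcn8 was at 13.31, Lcn6 at 8.08, Lcn10 at 11.71 and Obp2a at 8.80, each on its bright side.

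The 250 bases before the start of transcription are shown for 1 gene of each block: Crisp1 of the first, and the neighbours Lcn8 of the second and Lcn5 of the third. They are RefSeq sequences of GRCm38.p6, 5′ to 3′ on the gene's strand, at chr17:40319208-40319457 (minus strand), chr2:25652868-25653117 (plus strand) and chr2:25657702-25657951 (plus strand), and the capitals mark the core promoter element TATAAA, searched on the gene's strand.
Crisp1: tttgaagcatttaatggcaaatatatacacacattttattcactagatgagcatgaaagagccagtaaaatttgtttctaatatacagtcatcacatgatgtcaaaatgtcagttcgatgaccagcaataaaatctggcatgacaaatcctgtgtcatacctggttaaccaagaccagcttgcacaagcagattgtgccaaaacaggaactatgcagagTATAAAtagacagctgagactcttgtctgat
Lcn8: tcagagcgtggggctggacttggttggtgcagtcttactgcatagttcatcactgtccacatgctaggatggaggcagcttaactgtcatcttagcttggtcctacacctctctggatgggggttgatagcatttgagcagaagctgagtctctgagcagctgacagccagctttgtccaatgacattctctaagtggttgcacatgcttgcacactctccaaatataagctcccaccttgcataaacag
Lcn5: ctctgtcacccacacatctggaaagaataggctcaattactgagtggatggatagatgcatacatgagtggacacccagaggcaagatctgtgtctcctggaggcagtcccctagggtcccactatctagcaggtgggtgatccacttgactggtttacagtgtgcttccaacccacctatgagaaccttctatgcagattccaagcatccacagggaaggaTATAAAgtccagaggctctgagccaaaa
TATAAA began 31 bases before the start in Crisp1 and 28 bases before it in Lcn5, and these letters were not in the Lcn8 window. Of all 32851 such windows of RefSeq starts, 7.59% held these letters. They were in 2 of 18 windows of the first block, 3 of 45 of the second and 4 of 28 of the third. The androgen receptor half-site, AGAACA on either strand, was in none of the 3 windows and in 16.1% of all windows. It was in 6 of 18 windows of the first block, 15 of 45 of the second and 11 of 28 of the third. In the seminal vesicle block described below, the half-site was in 7 of 12 windows and TATAAA in 5 of 12. Of the 6 markers 4 had an entry in the table, as had 98 of the 121 genes of all blocks. A match of letters is a description of the sequence and not a binding site.

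Transcripts of other organs lay unevenly over the sets. Another block of 16 genes was bright on 3 Crisp1-high arrays only (ASP+TFA replicate 2, ASP+MSG+TFA replicate 1 and TFA replicate 3) and held all 9 seminal vesicle genes. Their list had a median level of 12.81 to 13.69 on those arrays and of 5.16 to 6.30 on all others. Ceacam10, which reached 13.82 on those 3 arrays and was at 7.30 to 11.39 on the other Crisp1-high arrays, belonged to this block and to the first. Spermatid genes were brightest on a pair of Crisp1-low arrays. The median level of 14 of them spanned 6.00 to 8.21 on the Crisp1-high arrays, against 9.87 on TFA replicate 2, 8.86 on ASP+MSG+TFA replicate 3 and 5.84 to 6.78 on the other Crisp1-low arrays. Pancreatic enzymes were at a median of 10.67 on TFA replicate 2 and at most 6.28 elsewhere, and Cela3b, an elastase of the pancreas, was counted as lower (-1.58, SE 0.53, but -0.70 without TFA replicate 2). Liver genes had medians of 9.46 (MSG+TFA replicate 3) and 10.78 (ASP+MSG+TFA replicate 1). The Crisp1-low arrays thus held transcripts of other organs, and a few epididymis genes exceeded the dim level there too, such as Gpx5 (8.34), Cstdc2 (7.82) and Lcn5 (6.81) on ASP+TFA replicate 3. Their part in the differences was not tested beyond leaving arrays out. The spermatid median difference was -0.74, and 0.73 without TFA replicate 2 and ASP+MSG+TFA replicate 3. Without the 3 seminal vesicle arrays 460 genes were counted as higher and 219 as lower, and without the 2 spermatid arrays, where 4 within-diet differences remained, 806 and 944.

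Adipocyte genes differed little between the sets. Of 29 measured, none was counted in either direction, 24 were below 0, and the median difference was -0.09, beside -0.06 for all genes. Adipoq, the hormone adiponectin, ranged between 12.89 and 13.42 on Crisp1-high arrays (median 13.19), against 13.18, 13.21, 13.36 and 13.12, a difference of -0.03 (SE 0.12). Fabp4, the fatty acid carrier of fat cells, was at 14.04 to 14.24, against 14.17, 14.20, 14.10 and 14.21 (-0.04, SE 0.08). The sets overlapped for both. The leptin gene Lep was lower in all 8 within-diet differences, with 12.02 to 12.97 against 12.96 to 13.23 (-0.40, SE 0.12), which is under the 1.4-fold limit. Pparg, the main adipocyte transcription factor, was at -0.25 (SE 0.11).

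Of 20 lipogenesis genes only Elovl6, which lengthens fatty acids, was counted, as higher. It ranged between 9.31 and 10.58 on Crisp1-high arrays (median 9.96), against 9.04, 9.45, 9.20 and 8.90, with overlap. The difference was 0.77 (SE 0.16), and 0.85 within each state of dim signal. Genes of oxidative phosphorylation centred on 0, with 27 of 54 above and 27 below and 1 counted, Atp5g1, a subunit of the ATP synthase (0.60, SE 0.12). Beige and brown fat genes gave none of 10.

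Macrophage genes were the fat-pad list with the most genes counted as lower, 7 of 20, beside 0.776% of all genes. The median difference was -0.55, with -0.60 within the aspartame diets and -0.85 within the raised arrays. The 7 were Gpnmb, Spp1, Trem2, Cd68, Adgre1, Mpeg1 and Folr2. Mmp12, a macrophage elastase, had the largest difference among the genes counted as lower. It was at 8.33 and 10.27 on MSG+TFA replicates 1 and 3, 7.54 and 8.01 on ASP+TFA replicates 1 and 2, 9.38 and 9.69 on ASP+MSG+TFA replicates 1 and 2, and 8.38 and 7.32 on TFA replicates 1 and 3, against 10.44, 10.20, 10.27 and 10.36 on the Crisp1-low arrays. Its difference was -1.71 (SE 0.41), and the sets overlapped through MSG+TFA replicate 3.

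Gpnmb, a lysosomal glycoprotein of lipid-laden macrophages, ranged between 8.92 and 11.02 (median 10.01), against 11.29, 11.11, 11.34 and 10.75 (-1.07, SE 0.21). Spp1, the secreted protein osteopontin, ranged between 6.12 and 7.40 (median 6.81), against 8.16, 7.03, 7.77 and 7.89 (-0.97, SE 0.14). The sets overlapped for Gpnmb and for Spp1. Trem2, a lipid-sensing receptor, differed by -0.82 (SE 0.25), and Adgre1, which encodes the macrophage antigen F4/80, by -0.71 (SE 0.20). The 20 genes with the largest counted differences on the lower side held others known from leukocytes, grouped after their values were seen. Rgs1, a regulator of G-protein signals in leukocytes, differed by -1.41 (SE 0.35), the lectin receptor Clec4a2 by -1.09 (SE 0.25), the leukocyte adhesion receptor Cd84 by -1.04 (SE 0.25) and the chemokine Ccl9 by -0.98 (SE 0.24). Il1rn, the natural antagonist of interleukin-1, differed by -0.92 (SE 0.20) and the complement receptor C3ar1 by -0.83 (SE 0.21). With the brightest probe set Il1rn was at -0.11, Ccl9 at -0.57 and Cd68 at -0.44, beside -0.80 for Cd68 with the median, and with the mean of the probe sets Clec4a2 was at -0.58. The same 20 also held Fabp7, a fatty acid carrier known from glia (-1.08, SE 0.20), Cdkn3, a phosphatase of the cell cycle (-1.01, SE 0.24, but -0.074 with the brightest probe set), Vmn2r92, a pheromone receptor gene (-0.995, SE 0.37), Nudt16l2 (-0.83, SE 0.20), Defb33 and Cela3b.

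The macrophage list did not divide the arrays as Crisp1 did. Its median level was 9.03 to 9.39 on 5 Crisp1-high arrays and 10.02 to 10.07 on the other 3 (MSG+TFA replicate 3 and ASP+MSG+TFA replicates 1 and 2), against 10.07, 10.21, 10.24 and 9.71 on the Crisp1-low arrays. In each diet both Crisp1-high arrays were below the Crisp1-low array, by as little as 0.01 on MSG+TFA replicate 3, the array with the lowest secretory gene level among the Crisp1-high arrays. In these bulk pools, fewer cells of a type and less RNA per cell cannot be told apart.

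**Figure D4:**
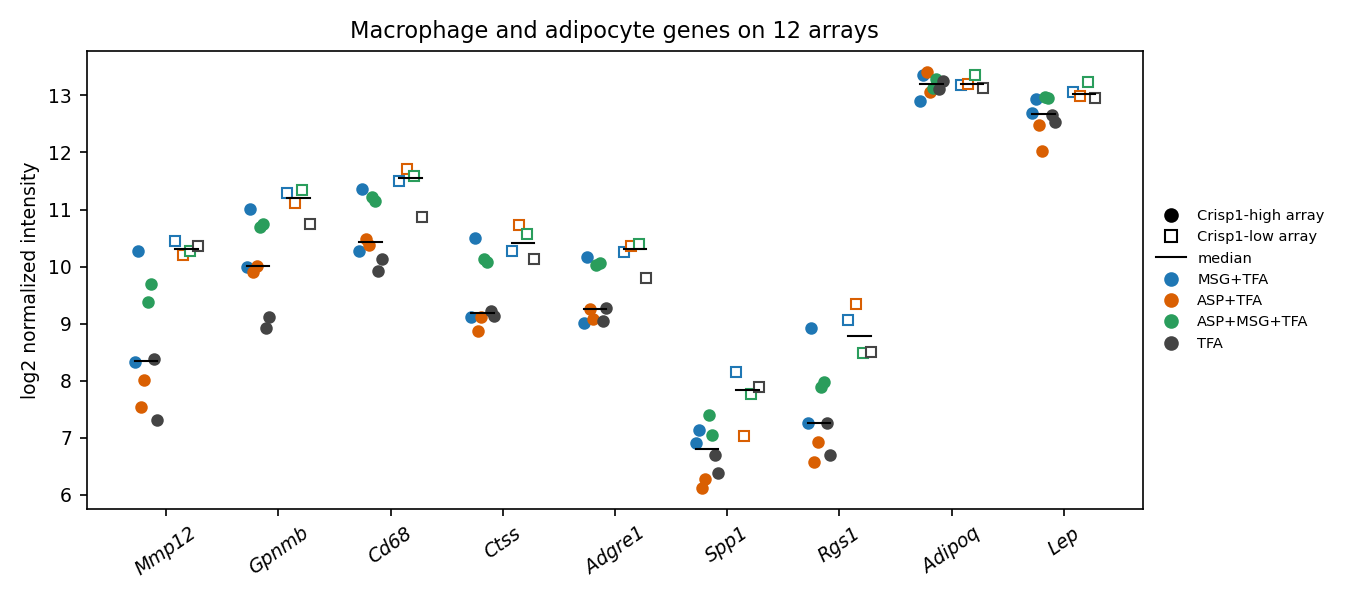
Log2 normalized intensity of 7 myeloid genes and of Adipoq and Lep on 12 arrays (filled circles: 8 Crisp1-high arrays, on the left of each gene; open squares: 4 Crisp1-low arrays; lines: medians; colours: diets). Medians of the circles lie below those of the squares for the myeloid genes, with overlap for genes such as Mmp12 (up to 10.27), Gpnmb and Spp1. The sets coincide for Adipoq.

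Of 30 fibroblast and matrix genes 28 were below 0, beside 60.8% of all genes, with a median of -0.35, beside -0.06, and Fn1 (fibronectin, -0.59, SE 0.18) and Postn (periostin, -0.53, SE 0.16) were counted as lower, as were 0.776% of all genes. Fn1 ranged between 10.84 and 11.98, against 11.95, 12.29, 12.19 and 11.55. Of 20 endothelial genes 18 were below 0 and none was counted, and their median of -0.12 was near that of all genes. Of 14 mesothelial genes Krt19, a keratin also found in duct epithelium, was counted as higher (1.00, SE 0.34), and the list's median was -0.34 within the aspartame diets but 0.18 within the raised arrays. None of 13 B cell genes and none of 17 T and NK cell genes was counted, but only 4 genes of each list had a mean above the dim level.

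**Figure D5:**
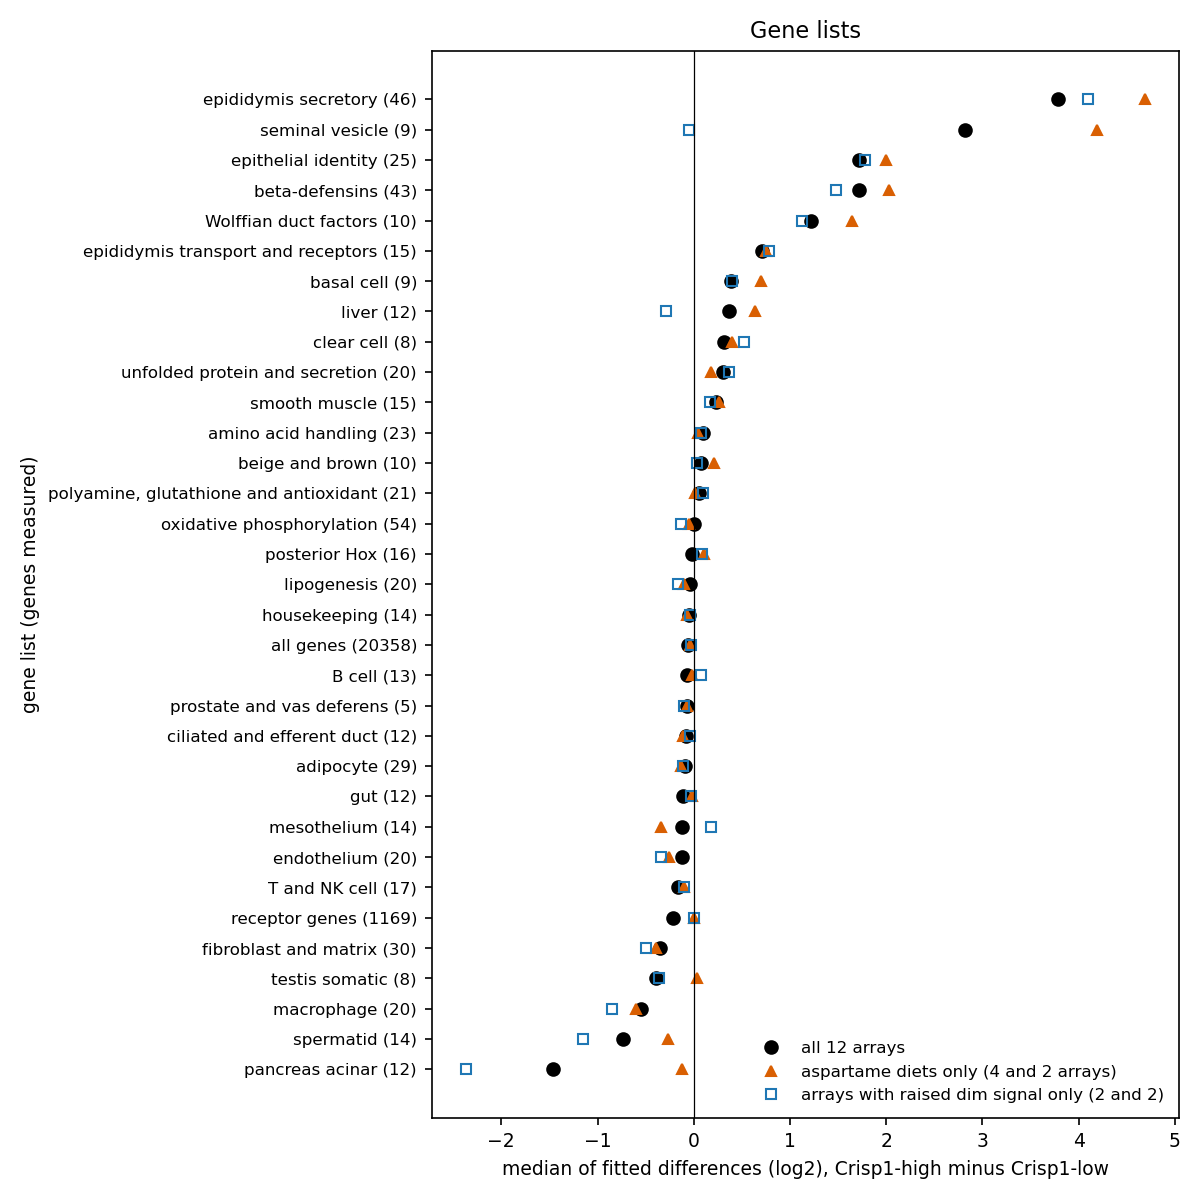
Median of the fitted log2 differences, Crisp1-high minus Crisp1-low, for each gene list (black: all 12 arrays; orange: aspartame diets only, 4 and 2 arrays; blue: raised arrays only, 2 and 2 arrays; number of genes in parentheses). Epididymis secretory genes stand at 3.79 and macrophage genes at -0.55 in all 12 arrays, with the same sign in both subsets, whereas seminal vesicle genes are at 4.19 and -0.05 in the subsets.

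Genes of amino acid handling, which bear on the additives glutamate and aspartame (itself made of aspartate and phenylalanine), were partly carried by the Crisp1-high arrays. Of 23 measured 6 were counted as higher and none as lower, though the median was 0.09. Slc1a1, a carrier of glutamate and aspartate, ranged between 6.66 and 10.99 (median 9.74), against 6.14, 6.35, 6.67 and 6.12 (3.05, SE 0.60). Slc7a5 differed by 2.82 (SE 0.72), and its partner chain Slc3a2 by 0.57 (SE 0.14). Slc7a11, which exchanges cystine for glutamate, ranged between 6.63 and 9.25, against 5.58, 5.62, 5.60 and 5.23 (2.52, SE 0.49). Got2, the mitochondrial aspartate aminotransferase, ranged between 10.60 and 11.97, against 9.90, 9.72, 10.14 and 9.58 (1.50, SE 0.26). The sets overlapped for Slc1a1 through MSG+TFA replicate 3 and for Slc7a5, and not for Got2 or Slc7a11. Slc1a3 (0.08), Slc1a2 (-0.14) and Glul (0.07), a glutamate carrier pair and glutamine synthetase, were near 0.

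Enzymes of glutathione and of protein folding in the secretory pathway were higher in part. Gstm7 (2.09, SE 0.36), Gstm6 (1.35, SE 0.27) and Gpx3 (0.52, SE 0.14) were counted among 21 glutathione, polyamine and antioxidant genes. With the brightest probe set Gstm6 was at 0.32 and Gpx3 at 0.33. Near-identical members of the Gstm family can share probes, so the Gstm values are uncertain as to member. Of 20 genes of the unfolded protein response and secretion 6 were counted as higher and none as lower (median 0.31), among them Creld2 (0.88, SE 0.20), Hyou1 (0.68, SE 0.15) and Pdia6 (0.68, SE 0.20), which assist folding in the endoplasmic reticulum. None of 14 housekeeping genes was counted.

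The diets could be tested with the Crisp1 set as a term, since the sets are balanced over them. The state of dim signal was not balanced: TFA and MSG+TFA each held 2 raised arrays of 3, and the aspartame diets held none. With all 12 arrays, too, the aspartame contrasts against TFA therefore compare arrays that differ in that state. With that term, 0 genes (0.0%) passed an adjusted p of 0.05 with 1.4-fold for MSG+TFA, ASP+TFA or ASP+MSG+TFA against TFA (limma, Benjamini-Hochberg over 20358 genes), and 0 passed the F test over the diets. Without TFA replicate 3, however, 5299 genes passed for ASP+TFA, 6169 for ASP+MSG+TFA and 3392 in the F test, and 0 for MSG+TFA. TFA then held raised arrays alone, and the aspartame diets held none. In that fit an aspartame diet and the state of dim signal cannot be told apart. Unadjusted and with all 12 arrays, 531, 5096 and 6256 genes had p under 0.05 for MSG+TFA, ASP+TFA and ASP+MSG+TFA, and 4094 in the F test. Without the term, 0 genes passed as well, and the unadjusted counts were 438, 4602, 5850 and 3692. The term lowered the smallest adjusted p to 0.0747 for ASP+TFA (Pcsk5, a proprotein convertase, with a diet difference of 1.68, SE 0.18), beside 0.186 without it. For ASP+MSG+TFA it was 0.105 with the term and 0.122 without.

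With the state of dim signal added to the model as a second term, limma called 64 genes for ASP+TFA against TFA, 63 of them higher, and 40 for ASP+MSG+TFA against TFA, 37 of them higher. Of these, 42 and 32 were among the 53 genes of the second block. By its construction this model takes the effect of raised dim signal from replicates 1 and 2 against replicate 3 of MSG+TFA and TFA, and TFA replicate 3 and MSG+TFA replicate 3 are the arrays on which the second block was lower. In the aspartame diets all 4 Crisp1-high arrays had the second block bright. Genes of the second block formed most of the diet calls of that model, and whether these arrays account for the calls was not tested.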

How the data were processed

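RNA of 12 visceral fat pools was hybridised by the authors to Affymetrix Mouse Gene 1.0 ST arrays (250 ng per array). The deposited values were linear array intensity that the authors had normalized with Partek and GCRMA, as named in the submitters' processing notes. GCRMA removes background by probe sequence and then equalises the distributions of all arrays, and dim values depend on that step, which was not repeated here. The table held 241576 probe sets, mostly single exons. Intensity was turned into log2 values from the deposited table, and the 212138 probe sets naming exactly 1 gene by the platform annotation gave 20358 genes (symbols updated through RefSeq, GRCm38.p6), each the median of its probe sets. Depth does not apply to arrays; their number limits the precision.

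Groups came from the sample titles. limma 3.58.1 in R 4.3.3 fitted 1 mean per diet plus the Crisp1 set to all 12 arrays. For the Crisp1 sets only the difference and its moderated standard error were used. Diet contrasts were tested two-sided with Benjamini-Hochberg adjustment over all genes. The pipeline was tested on simulated data. The members and the 30 gene lists were chosen with earlier results of these data known. Named genes were the 6 markers, the 20 largest counted differences in each direction above the dim level, up to 6 members of each list, the 10 genes most like Crisp1 and up to 5 genes per diet contrast. Genes named only in the blocks, defensins and list remainders were chosen after their values were seen.

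Replicate numbers of the titles were checked for pairing: deviations from diet means of same-numbered arrays correlated at 0.59, 0.63 and 0.66 between MSG+TFA and TFA, over 0.1 in each pair, while every other pair of diets had at least 1 negative value. Numbers were therefore taken to pair MSG+TFA with TFA alone. In both diets replicates 1 and 2 were raised, replicate 3 was not, and replicate 2 was the Crisp1-low array. A pairing and these shared states cannot be told apart. No source says what separates the replicates of a diet besides pooling, so p-values measure the spread between pools. Within MSG+TFA and TFA this spread also holds the difference in dim signal between raised and other arrays. Alternatives were another gene summary, no dim genes, other model terms, a replicate block, subsets of arrays, each array left out, and the methods' analysis of variance. Some genes of the platform are not reported here.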

Additional observations from a re-analysis of the deposited data

Results flagged for a closer look

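Single arrays stood far from the rest of their set for 15 of 146 groups of values looked at. Chance alone gives about 1 in 20, but genes of a block vary together, so that rate is no test here. Of the 15, 7 were epididymis genes on ASP+TFA replicate 1 among the Crisp1-high arrays: Spint4 at 4.82, Ces5a at 5.40, Wfdc9 at 5.77, Spink11 at 5.84, Lcn5 at 7.67, Spink8 at 8.30 and Epp13 at 8.78, all below the other arrays of that set. Spint4, Ces5a, Wfdc9, Spink11, Lcn5, Spink8 and Epp13 belong to the third block of genes described above. On MSG+TFA replicate 3 the median level of duct transport and receptor genes was low, at 7.56.

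Among the Crisp1-low arrays, ASP+TFA replicate 3 was high in Lcn5 (6.81) and Cstdc2 (7.82). TFA replicate 2 was high in Cela3b (10.12) and in the median of pancreatic enzymes (10.67), and low in Cd200r1 (7.60) and in the median of fibroblast and matrix genes (8.92). MSG+TFA replicate 2 was low in the median of oxidative phosphorylation genes (10.87).

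For some lists the mean of the Crisp1-high arrays of a diet lay on opposite sides of the Crisp1-low array in different diets. In each case the difference was not tested. Seminal vesicle genes were 4.37 higher in ASP+TFA, 4.18 higher in ASP+MSG+TFA and 3.33 higher in TFA, but at -0.34 in MSG+TFA. Each of the higher values came from a single array: ASP+TFA replicate 2 (13.69), ASP+MSG+TFA replicate 1 (13.41) and TFA replicate 3 (12.81). The other Crisp1-high array of these diets was at 5.53, 5.26 and 6.30, against 5.24, 5.16 and 6.23 on the Crisp1-low array. Spermatid genes were at 1.26 in ASP+TFA, against -2.04 in ASP+MSG+TFA and -2.61 in TFA. Genes of ciliated cells and efferent ducts were at 0.82 in ASP+TFA, against -0.28 in MSG+TFA, -0.75 in ASP+MSG+TFA and -0.32 in TFA. Mesothelial genes were at 0.28 in MSG+TFA and 0.44 in TFA, against -0.23 in ASP+MSG+TFA. T and NK cell genes were at 0.36 in ASP+MSG+TFA and -0.27 in MSG+TFA. Smaller shifts of the same kind were seen in posterior Hox genes (0.069 in ASP+MSG+TFA, against -0.40 in MSG+TFA and -0.096 in ASP+TFA), somatic testis genes (0.051 in ASP+MSG+TFA, against -0.82 in TFA) and gut genes (0.081 in ASP+MSG+TFA, against -0.54 in MSG+TFA, -0.17 in ASP+TFA and -0.44 in TFA).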

How the results depend on the processing

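The 484 higher and 158 lower genes moved with the model and with the number of differences that had to share a sign. Without the diet term 189 and 22 were counted, with raised dim signal as a term 784 and 399, within the aspartame diets 929 and 603, within the raised arrays 1047 and 949, without the 2 spermatid arrays 806 and 944, and at 2-fold 238 and 8. The number of differences required to share a sign was 8 in the main count. It was 32 without the diet term, 6 with raised dim signal as a term and 4 in the aspartame diets. It was also 4 without the 2 spermatid arrays, 2 in the raised arrays, and 6 or 7 with 1 array left out. All 189 and 22 genes counted without the diet term were among the 484 and 158. The brightest probe set gave 281 lower genes (52 shared with the 158), and leaving out dim genes gave 95. With 1 array left out the counts lay between 456 and 650 (higher) and between 128 and 455 (lower), the lower genes moving most without ASP+MSG+TFA replicate 3 (455), ASP+TFA replicate 3 (418), TFA replicate 1 (323), MSG+TFA replicate 2 (301), MSG+TFA replicate 3 (298) and ASP+TFA replicate 2 (239). Of 4384 values of 200 named or list genes under an alternative 77 moved by more than the spread, and 2 genes counted as higher turned sign, both with the brightest probe set: Gata3 at -0.062 and Krt5 at -0.25. Genes counted in neither direction turned sign as well (126 values of 52 genes, Gata3 and Krt5 included), with the brightest probe set Etv5 to -0.20, beside 1.97, and Ccno to -0.11, beside 1.41. Of 726 list medians 22 moved, and 45 of 17 lists turned sign, among them Wolffian duct factors (-0.01) and basal cells (-0.20) with the brightest probe set, and somatic testis (0.17) and prostate and vas deferens (1.67) without dim genes. For the blocks, a margin of 2 log2 units, chosen after seeing the data, left 12, 35, 18 and 14 genes. The replicate block gave 546 higher and 228 lower genes and kept 0 calls for MSG+TFA against TFA, the diets whose same-numbered arrays correlated. For diets whose replicates share only a number it gave 2998 calls for ASP+TFA, 4314 for ASP+MSG+TFA and 2684 in the F test. Raised dim signal as a term gave 64, 40 and 36 calls for these. With 1 array left out the range was 0 to 5299 for ASP+TFA against TFA, 0 to 6169 for ASP+MSG+TFA against TFA and 0 to 3392 for the diet F test, the high values without TFA replicate 3 and 0 without any other array. The cause was not tested, but the state of dim signal was then that of raised arrays alone in TFA. Leaving out dim genes gave 3 calls for ASP+TFA, the brightest probe set 1 for ASP+MSG+TFA. When the diets were compared by analysis of variance, as in the methods, 532, 3925 and 5143 genes had an unadjusted p under 0.05. These counts were for MSG+TFA, ASP+TFA and ASP+MSG+TFA against TFA, and a 1.4-fold limit lowered them to 118, 2597 and 3550. The F test of that analysis, without a fold limit, had 2843 such genes, and 0 genes passed after adjustment. Differences from a level under 6.61 are limited by dim signal and are not exact sizes. Cross-hybridisation between near-identical family members, such as defensins, was not tested.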

Other observations

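A few genes outside the fixed lists followed the Crisp1 sets and were picked with their values in view. Enpp1, a membrane enzyme that splits ATP and releases pyrophosphate, was at 8.03 to 11.99 on the Crisp1-high arrays, against 6.59 to 7.50 on the Crisp1-low arrays (difference 3.56, SE 0.63), and belonged to the third block with 8.03 on ASP+TFA replicate 1. Ido1, which breaks down tryptophan and is known from immune cells and from the epididymis, was at 6.66 to 11.01, against 4.77 to 5.54 (4.12, SE 0.78). Lipg, the endothelial lipase, was at 7.58 to 10.01, against 5.85 to 6.23 (2.95, SE 0.47). Lcn2, a lipocalin also studied as an adipokine, reached 13.49 on the Crisp1-high arrays but was at 11.55 on TFA replicate 3 and 10.72 on MSG+TFA replicate 3, against 9.58 to 11.54 on the Crisp1-low arrays (1.79, SE 0.58). Ramp3, which pairs with peptide hormone receptors, was at 6.78 to 9.21, against 5.27 to 6.28 (2.33, SE 0.30). Each of these genes is also known from fat, vessels or immune cells, and none overlapped between the sets except Lcn2.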
